A study of Mus musculus with 19 samples.

Results

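The 9 genes described here encode proteins that carry or tune the signal of the T cell antigen receptor just inside the plasma membrane. They are the kinases Lck and Zap70, the adaptors Lat, Sh2d2a and Skap1, the inhibitor Ubash3a, and the surface receptors Cd2, Cd5 and Cd6. They were taken by symbol from a table of 46983 genes, and each was compared with Cd3e, a CD3 chain of the receptor complex that is characteristic of T cells. All 9 passed the filter on low counts, as did 16763 genes in all. RNA was sequenced in bulk from 19 tumours. They were raised in syngeneic BALB/cAnN mice by injection of 4T1, a line derived from a mouse mammary carcinoma. Each tumour began from 1000000 injected cells, and antibody treatment started 3 days later and was given 3 times at intervals of 3 days. The groups were tumours with knockdown of lactate dehydrogenase A (LDHA-KD, line 4T1-KD) under anti-CTLA-4 (n = 5), LDHA-KD tumours under control IgG (n = 5), control tumours (line 4T1-Sc) under anti-CTLA-4 (n = 5) and control tumours under IgG (n = 4). CTLA-4 is an inhibitory receptor of T cells. The knockdown was in the injected tumour cells, the mice themselves are described as naive, and the labels do not say how many clones each line holds or whether every tumour came from its own mouse. P-values therefore measure the spread between these tumours.

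When an antigen engages the receptor, Lck, a kinase held at the coreceptors CD4 and CD8, phosphorylates the CD3 chains. ZAP-70 docks there, is itself activated by Lck, and phosphorylates LAT, a membrane scaffold on which phospholipase, exchange factors and further adaptors gather. SKAP1 links this signal to integrin adhesion, TSAd (the product of Sh2d2a) binds Lck, UBASH3A and CD5 restrain the signal, and CD2 and CD6 bind ligands on the cell that presents the antigen.

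Total gene counts were 31783272 to 43266699 per tumour. Ldha, the target of the knockdown, averaged 541 ± 38.2 CPM (counts per 1000000 counts, after scaling of the libraries) in LDHA-KD tumours under anti-CTLA-4 and 485 ± 27.2 CPM in those under IgG, against 1914 ± 257 CPM in control tumours under anti-CTLA-4 and 1600 ± 264 CPM in those under IgG (SD), and every LDHA-KD tumour lay below every control tumour. The first principal component of the libraries (41.8% of the variance) ran between the LDHA-KD and the control libraries. The second (17.0%) set 4 libraries apart, which were replicates 3 and 5 of the LDHA-KD anti-CTLA-4 group and replicates 3 and 5 of the control anti-CTLA-4 group. Tests of the 9 genes with edgeR that involve anti-CTLA-4 are given below with and without these libraries, and those of the exact test, the pathway lists and the marker lists with all libraries only. Cd3e itself had between 20 and 438 counts per tumour, and the lowest count of any member was 11, for Ubash3a in control IgG replicate 1.

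Promoters of 5 members and of Cd3e, from RefSeq tables of build GRCm38.p6, are shown as background. Each runs from 250 bases before to 50 bases after its most upstream listed start, read along the gene's strand. These genes varied together between tumours, and whether their promoters have a part in this was not tested. The 3 short words searched for, on both strands, are in capitals. They are AGGAA, the core of ETS family sites, TGTGGT, a RUNX word, and CAGNTG, an E-box, and matches may overlap or touch. Among 32851 promoters of the same length, 66.7% held AGGAA, 16.8% held TGTGGT and 51.4% held CAGNTG. The kinase Lck (chr4:129573592-129573891, minus strand) held 4 AGGAA words, 1 RUNX word and 1 E-box.
Lck: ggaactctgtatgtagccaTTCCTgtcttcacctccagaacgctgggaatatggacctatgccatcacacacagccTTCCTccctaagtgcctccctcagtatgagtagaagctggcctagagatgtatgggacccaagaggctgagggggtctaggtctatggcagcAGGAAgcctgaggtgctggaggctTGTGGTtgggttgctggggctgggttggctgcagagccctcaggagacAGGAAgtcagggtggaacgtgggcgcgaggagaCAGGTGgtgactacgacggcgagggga
The kinase Zap70 (chr1:36761548-36761847, plus strand) held 4 AGGAA words, none of the RUNX word and 2 E-boxes.
Zap70: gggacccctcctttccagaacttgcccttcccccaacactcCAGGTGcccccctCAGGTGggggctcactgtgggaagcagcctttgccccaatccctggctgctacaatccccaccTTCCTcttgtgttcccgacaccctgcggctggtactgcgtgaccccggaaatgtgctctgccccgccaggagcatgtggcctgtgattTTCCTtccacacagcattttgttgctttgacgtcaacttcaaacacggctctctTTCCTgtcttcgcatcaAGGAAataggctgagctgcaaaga
The scaffold Lat (chr7:126369519-126369818, minus strand) held 4 AGGAA words, 1 RUNX word and 1 E-box.
Lat: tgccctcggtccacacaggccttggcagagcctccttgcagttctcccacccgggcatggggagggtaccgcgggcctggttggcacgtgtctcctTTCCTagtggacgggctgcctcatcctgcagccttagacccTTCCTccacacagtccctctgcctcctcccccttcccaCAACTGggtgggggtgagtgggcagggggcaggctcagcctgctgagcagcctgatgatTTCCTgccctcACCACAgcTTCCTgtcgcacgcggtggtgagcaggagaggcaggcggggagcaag
The inhibitor Ubash3a (chr17:31207816-31208115, plus strand) held 1 AGGAA word and neither of the others.
Ubash3a: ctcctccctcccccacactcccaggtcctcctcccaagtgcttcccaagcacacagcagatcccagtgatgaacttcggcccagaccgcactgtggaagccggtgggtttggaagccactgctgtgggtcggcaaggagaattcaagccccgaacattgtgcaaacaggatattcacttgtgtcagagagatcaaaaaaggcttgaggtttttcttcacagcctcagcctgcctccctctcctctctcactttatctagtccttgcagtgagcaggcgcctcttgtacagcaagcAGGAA
The receptor Cd5 (chr19:10738925-10739224, minus strand) held 2 AGGAA words and 2 E-boxes.
Cd5: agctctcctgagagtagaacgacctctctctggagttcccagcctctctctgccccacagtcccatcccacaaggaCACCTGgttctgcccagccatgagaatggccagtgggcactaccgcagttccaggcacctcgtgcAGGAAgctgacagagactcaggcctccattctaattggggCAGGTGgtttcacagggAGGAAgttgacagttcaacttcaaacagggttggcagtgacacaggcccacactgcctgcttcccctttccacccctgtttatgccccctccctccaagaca
The comparator Cd3e (chr9:45009562-45009861, minus strand) held 3 AGGAA words and 1 E-box.
Cd3e: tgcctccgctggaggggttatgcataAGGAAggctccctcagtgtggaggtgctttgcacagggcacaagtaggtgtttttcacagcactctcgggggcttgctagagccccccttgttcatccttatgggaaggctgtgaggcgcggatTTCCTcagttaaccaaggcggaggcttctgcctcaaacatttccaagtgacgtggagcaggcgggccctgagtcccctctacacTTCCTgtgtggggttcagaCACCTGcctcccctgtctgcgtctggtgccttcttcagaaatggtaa
Promoters of Cd2, Cd6, Sh2d2a and Skap1 were not used here. Lck has 2 listed starts and Zap70 has 3. The later starts, not shown, hold other numbers of these words, and 1 of those of Zap70 holds 1 RUNX word. On GRCm38, Cd5 (chr19:10717116-10739002) and Cd6 (chr19:10789341-10830058) both lie on the minus strand. Exons of Lck hold Mir8119 and exons of Lat hold Mir7058 on the same strand. A lincRNA on the opposite strand, 2010300F17Rik, overlaps Skap1 exons by 186 bp, and an antisense RNA, Gm48719, overlaps Cd3e exons by 135 bp, so reads of these pairs may be mixed if counting ignored strand.

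All 9 genes had the same order of group means. The level was highest in LDHA-KD tumours under anti-CTLA-4, then in LDHA-KD tumours under IgG, then in control tumours under anti-CTLA-4, and lowest in control tumours under IgG. Tumours of the first and second of these groups overlapped for all 9 genes. Tumours of the second and the third overlapped for 5 genes and were apart for Lck, Sh2d2a, Ubash3a and Cd6. Tumours of the third and the last overlapped for 8 genes and were apart for Lck only. Per kilobase of annotated exon, Cd2 and Lck were the most abundant members in every group, with means of 8.15 and 7.20 CPM per kb in LDHA-KD tumours under anti-CTLA-4 and 1.48 and 1.85 CPM per kb in control tumours under IgG, and they overlapped each other. Lat came next, and Ubash3a was lowest in every group, at 0.311 CPM per kb in LDHA-KD tumours under anti-CTLA-4 and 0.0497 CPM per kb in control tumours under IgG. Zap70, Cd5, Sh2d2a, Cd6 and Skap1 lay between Lat and Ubash3a in all groups, in an order that differed between groups. Skap1 had the lowest mean of these in LDHA-KD tumours under anti-CTLA-4 and the highest in control tumours under IgG. Ranked by mean with Cd3e among them, each overlapped the next in all groups.

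**Figure D1:**
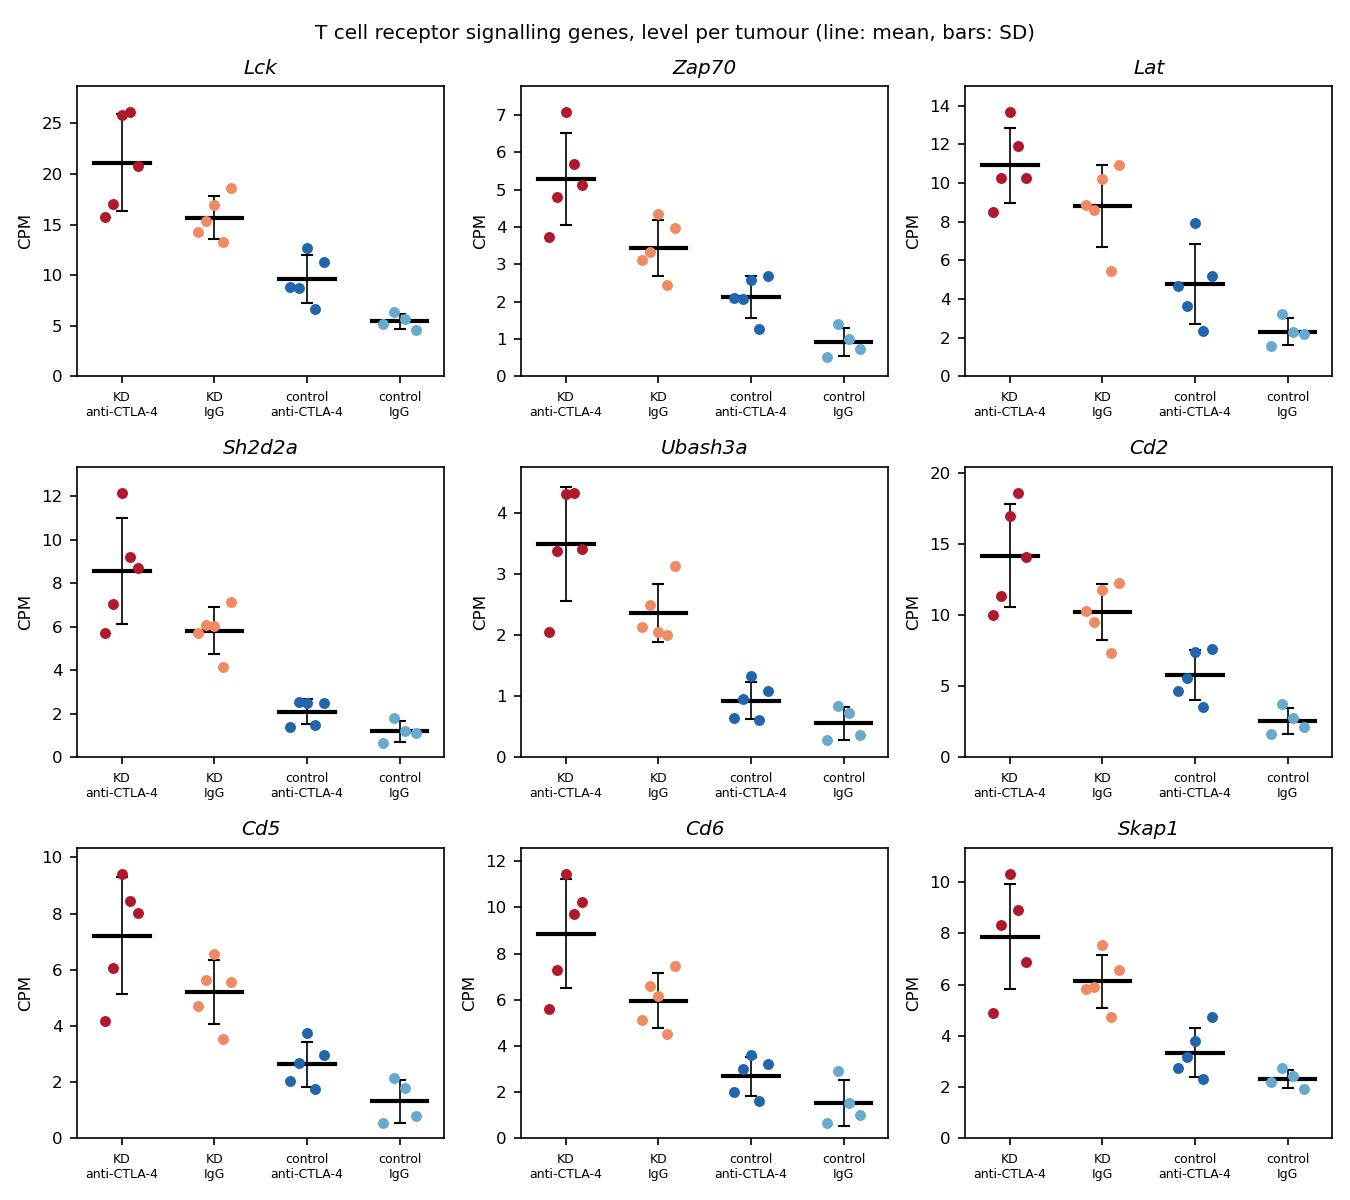
Level of the 9 genes in each of the 19 tumours, in CPM on a linear axis from 0, by group; points are tumours, the line is the group mean and the bars are 1 SD. In each panel both LDHA-KD groups lie above the control group under the same antibody with no overlap, as with Lck, where LDHA-KD tumours under IgG reach down to 13.3 CPM and control tumours under IgG reach up to 6.35 CPM.

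All 9 genes rose in LDHA-KD tumours relative to control tumours with either antibody, and in neither setting did a single LDHA-KD tumour overlap a control tumour. Under IgG the log2 fold changes ran from 1.40 (Skap1) to 2.29 (Sh2d2a) with a median of 1.97, while the median over all 16763 genes was -0.0016. The adjusted p (edgeR's quasi-likelihood test, Benjamini-Hochberg over all genes) lay between 5.28e-06 and 0.0002. The 9 of 9 higher stand beside 16.8% of all genes that were higher in this comparison (34.3% changed in either direction), and the 9 of 9 without overlap beside 15.1% of all genes. Under anti-CTLA-4 the range was 1.13 (Lck) to 2.03 (Sh2d2a) with a median of 1.31 and adjusted p between 5.28e-06 and 0.00107, beside 20.2% of all genes higher, 40% changed in either direction and 11.6% without overlap. Without the 4 libraries apart, all 9 still rose under anti-CTLA-4, by 1.28 (Lck) to 2.12 (Ubash3a), with adjusted p between 0.000209 and 0.00925. In bulk tumour RNA, more T cells and more of each RNA per T cell cannot be told apart.

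Lck, the Src family kinase that starts the cascade, had 14.3, 15.3, 17.0, 13.3 and 18.6 CPM in LDHA-KD tumours under IgG, against 5.13, 6.35, 5.63 and 4.59 CPM in control tumours under IgG. The lowest LDHA-KD tumour was thus above every control tumour. The difference was 2.89-fold, or 1.53 on the log2 scale (SE 0.19, adjusted p = 5.28e-06). Under anti-CTLA-4, Lck had 15.7, 17.1, 25.8, 26.1 and 20.8 CPM in LDHA-KD tumours, against 8.85, 8.76, 12.7, 6.65 and 11.3 CPM in control tumours. The groups again did not overlap, and the difference of 1.13 on the log2 scale (SE 0.17, adjusted p = 4.25e-05) was the smallest of the 9.

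Zap70, the kinase recruited to phosphorylated CD3 chains, had 3.10, 3.33, 4.34, 2.44 and 3.97 CPM in LDHA-KD tumours under IgG, against 0.529, 1.39, 1.001 and 0.741 CPM in control tumours under IgG. No control tumour exceeded 1.39 CPM, and control replicate 1 was lowest, as it was for the other members except Lck and Skap1, where replicate 5 was lowest. Zap70 rose 3.75-fold, 1.91 on the log2 scale (SE 0.28, adjusted p = 3.11e-05). Under anti-CTLA-4 it had 3.72, 4.81, 7.07, 5.69 and 5.11 CPM in LDHA-KD tumours, against 2.09, 2.06, 2.57, 1.26 and 2.68 CPM in control tumours, a rise of 1.31 on the log2 scale (SE 0.24, adjusted p = 0.000269).

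Among the adaptors, Sh2d2a showed the largest difference of the 9 under both antibodies. It had 5.71, 6.10, 6.02, 4.17 and 7.13 CPM in LDHA-KD tumours under IgG, against 0.635, 1.83, 1.19 and 1.11 CPM in control tumours under IgG, a 4.90-fold rise, 2.29 on the log2 scale (SE 0.28, adjusted p = 5.66e-06). Under anti-CTLA-4 it had 5.70, 7.05, 12.1, 9.22 and 8.68 CPM in LDHA-KD tumours, against 1.41, 2.53, 2.52, 1.50 and 2.50 CPM in control tumours, 2.03 on the log2 scale (SE 0.25, adjusted p = 5.28e-06). The lowest LDHA-KD tumour under either antibody was above the highest of all 9 control tumours. Lat, the scaffold, averaged 8.81 ± 2.12 CPM in LDHA-KD tumours and 2.32 ± 0.675 CPM in control tumours under IgG (SD), 1.93 on the log2 scale (SE 0.29, adjusted p = 4.74e-05). Under anti-CTLA-4 it averaged 10.9 ± 1.96 CPM in LDHA-KD tumours and 4.76 ± 2.07 CPM in control tumours (SD), 1.20 on the log2 scale (SE 0.25, adjusted p = 0.00107), and the control tumours spread from 2.36 to 7.91 CPM. Skap1, the integrin adaptor, had 5.84, 5.92, 7.55, 4.72 and 6.59 CPM in LDHA-KD tumours under IgG, against 2.20, 2.73, 2.43 and 1.91 CPM in control tumours under IgG. These groups did not overlap, yet 1.40 on the log2 scale (SE 0.22, adjusted p = 8.58e-05) was the smallest difference of the 9 under IgG.

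The inhibitor Ubash3a, which damps signalling at ZAP-70 and related kinases, was the least abundant member. It averaged 2.36 ± 0.470 CPM in LDHA-KD tumours and 0.558 ± 0.269 CPM in control tumours under IgG, 2.08 on the log2 scale (SE 0.31, adjusted p = 4.93e-05). Under anti-CTLA-4 it averaged 3.49 ± 0.930 CPM in LDHA-KD tumours and 0.926 ± 0.299 CPM in control tumours (SD), 1.91 on the log2 scale (SE 0.27, adjusted p = 2.62e-05). Control tumours had 11 to 51 counts of it. Both differences of this negative regulator lie within the range of those of the kinases and adaptors.

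Of the surface receptors, Cd2, which in mice binds CD48, had 10.3, 9.54, 11.7, 7.32 and 12.2 CPM in LDHA-KD tumours under IgG, against 1.64, 3.74, 2.76 and 2.14 CPM in control tumours under IgG, 1.99 on the log2 scale (SE 0.27, adjusted p = 1.31e-05). Under anti-CTLA-4 its values were 10.0, 11.3, 17.0, 18.6 and 14.1 CPM in LDHA-KD tumours, against 4.64, 5.55, 7.42, 3.57 and 7.63 CPM in control tumours, 1.30 on the log2 scale (SE 0.23, adjusted p = 0.000238). The groups did not overlap under either antibody. Cd5, a scavenger receptor family member that lowers receptor sensitivity, averaged 5.21 ± 1.14 CPM in LDHA-KD tumours and 1.32 ± 0.774 CPM in control tumours under IgG, 1.99 on the log2 scale (SE 0.35, adjusted p = 0.0002). Cd6, of the same family, averaged 5.97 ± 1.18 CPM in LDHA-KD tumours and 1.53 ± 0.981 CPM in control tumours under IgG, 1.97 on the log2 scale (SE 0.34, adjusted p = 0.000185). Under anti-CTLA-4, Cd5 rose by 1.45 and Cd6 by 1.72 on the log2 scale, with adjusted p of 0.000896 and 0.000193.

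**Figure D2:**
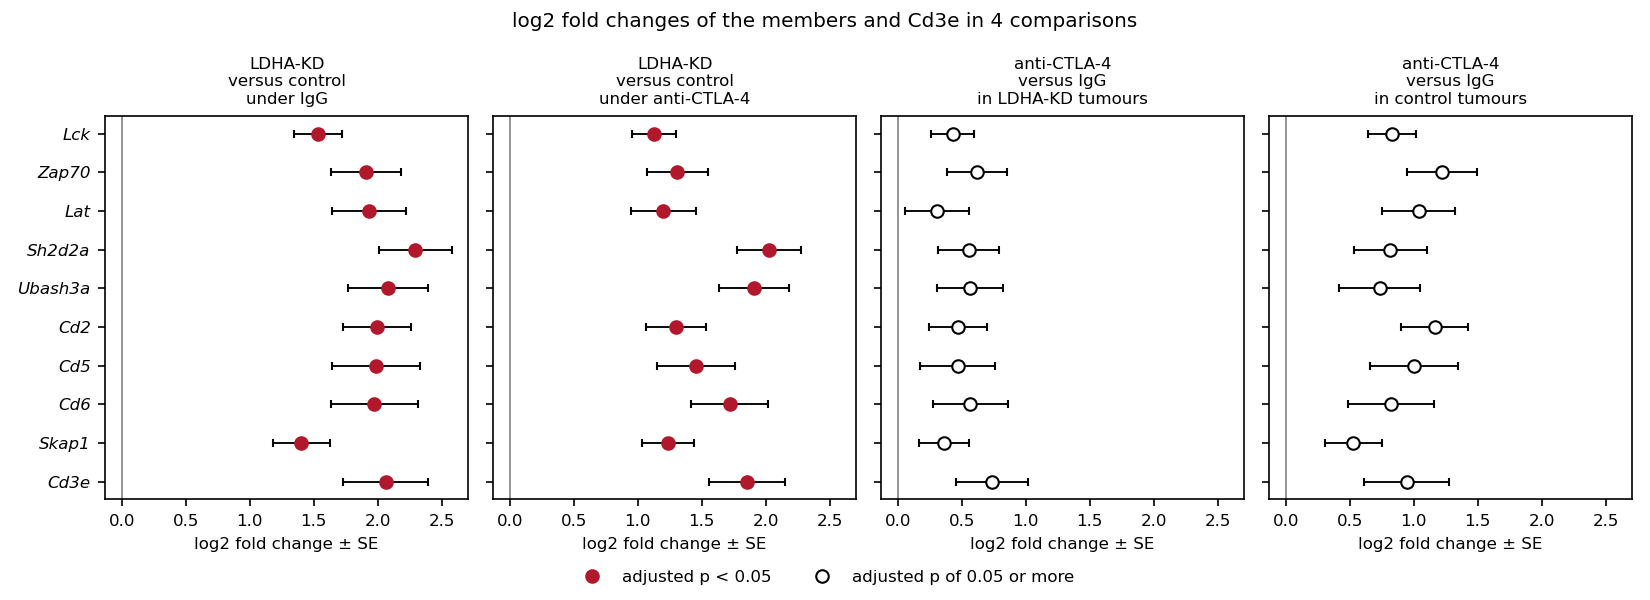
Log2 fold changes with SE (edgeR) of the 9 genes and of Cd3e in 4 comparisons; filled points passed an adjusted p of 0.05 and open points did not. All points of the LDHA-KD comparisons are filled, between 1.13 and 2.29, and all points of the anti-CTLA-4 comparisons are open and positive.

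Anti-CTLA-4 was compared with IgG within each tumour type. None of the 9 genes passed the adjusted threshold in either, and edgeR called 0% of all genes in both, while 1987 genes in LDHA-KD tumours and 1346 genes in control tumours had an unadjusted p under 0.05. In LDHA-KD tumours the 9 log2 fold changes were all positive, from 0.31 (Lat) to 0.62 (Zap70), with a median of 0.47, beside 48.8% of all genes with a positive value. The adjusted p was 0.329 to 0.638, DESeq2 called 50 genes and none of the 9, limma voom called none, and all 9 genes overlapped between antibodies. Of the 9, Lck, Zap70, Sh2d2a and Ubash3a had an unadjusted p under 0.05 (0.0188, 0.0153, 0.0305 and 0.0415), beside 8.18% of all genes that did so and were higher.

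In control tumours the 9 log2 fold changes were again all positive, from 0.53 (Skap1) to 1.22 (Zap70), with a median of 0.83, beside 49.1% of all genes. All 9 had an unadjusted p under 0.05, between 0.000257 and 0.0328, beside 4.69% of all genes that did so and were higher, but the adjusted p stayed at 0.516 to 0.601. Lck was the 1 member whose anti-CTLA-4 tumours, at 8.85, 8.76, 12.7, 6.65 and 11.3 CPM, all lay above the IgG tumours, at 5.13, 6.35, 5.63 and 4.59 CPM, which 0.555% of all genes did. DESeq2 called 11 genes here, and Lck, Zap70 and Cd2 were 3 of them, with adjusted p of 0.0224, 0.0207 and 0.0207. Without the 4 libraries apart, which include 2 of the 5 anti-CTLA-4 tumours of each type, the log2 fold changes were 0.24 (Skap1) to 0.98 (Zap70) in control tumours and 0.21 (Lat) to 0.46 (Zap70) in LDHA-KD tumours, and none passed. These comparisons share their groups with those of LDHA-KD against control tumours.

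The difference between the responses to anti-CTLA-4, LDHA-KD less control, was negative for all 9 genes, from -0.73 (Lat) to -0.17 (Skap1). The smallest unadjusted p was 0.0582 (Cd2), all adjusted p were 1, and no gene (0%) in the table passed by edgeR, DESeq2 or limma voom, with 415 genes under an unadjusted p of 0.05. Without the 4 libraries apart it ran from -0.52 (Zap70) to 0.04 (Ubash3a), and none passed. A difference between tumour types in the response of these genes to anti-CTLA-4 was not detectable here.

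Cd3e rose as the members did, so each gene was then read per Cd3e count in the same tumour. Cd3e had 4.95, 4.64, 6.30, 2.59 and 5.88 CPM in LDHA-KD tumours under IgG, against 0.529, 1.77, 1.35 and 1.03 CPM in control tumours under IgG, 2.06 on the log2 scale (SE 0.34, adjusted p = 0.000108). Under anti-CTLA-4 it averaged 8.12 ± 2.35 CPM in LDHA-KD tumours and 2.24 ± 0.748 CPM in control tumours (SD), 1.85 on the log2 scale (SE 0.29, adjusted p = 7.41e-05). Per Cd3e count the within-group spread narrowed for 7 of the 9 genes. For Cd5 the pooled SD was 0.57 for log2 CPM and 0.22 for the log2 ratio, and for Zap70 it was 0.42 and 0.21. For Lck it was 0.29 and 0.37, and for Skap1 0.34 and 0.35. Over all 19 tumours Sh2d2a ranged 19.1-fold in CPM and 2.12-fold per Cd3e count, whereas Lck ranged 5.68-fold and 4.25-fold.

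**Figure D3:**
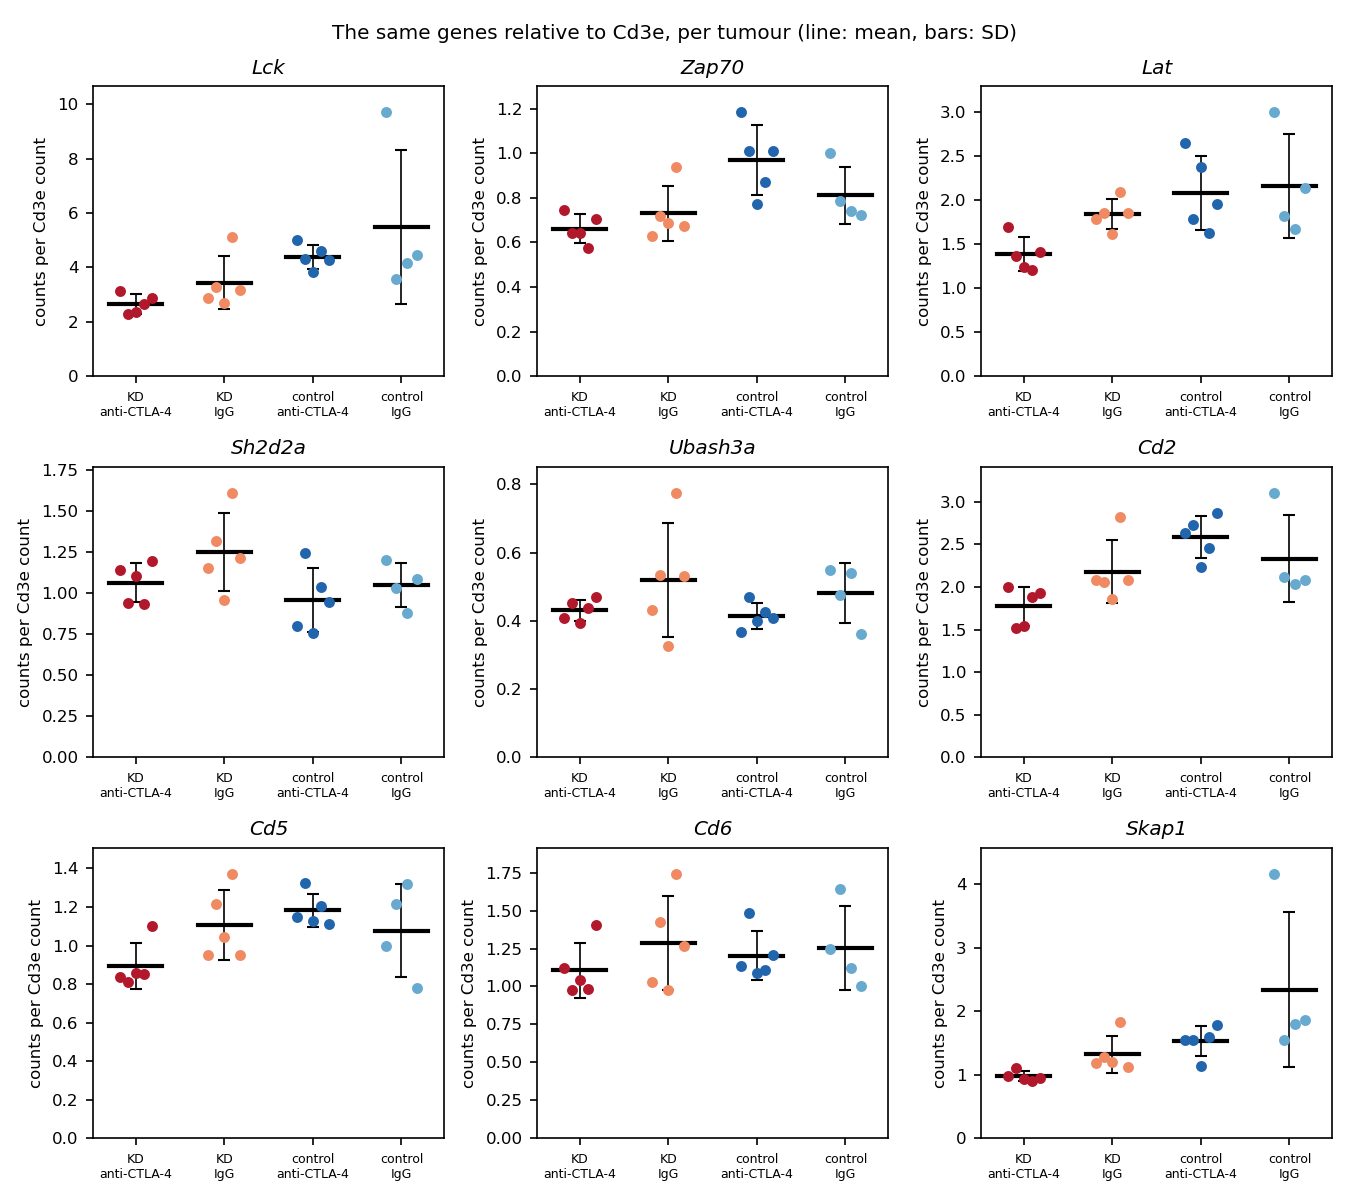
Counts of each gene per Cd3e count in the same tumour, on a linear axis from 0, by group; points are tumours, the line is the mean and the bars are 1 SD. The means of Lck, Zap70, Lat, Cd2 and Skap1 are lower in both LDHA-KD groups than in either control group. Control IgG replicate 1 stands high at 9.70 for Lck and 4.15 for Skap1, and Sh2d2a, Ubash3a and Cd6 overlap in all groups.

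Under IgG, 1 of the 9 genes, Skap1, passed the test of its proportion to Cd3e, and it fell. Skap1 had 1.18, 1.28, 1.20, 1.82 and 1.12 counts per Cd3e count in LDHA-KD tumours, against 4.15, 1.54, 1.80 and 1.86 in control tumours, and the groups overlapped. With the Cd3e count as the offset in edgeR its log2 difference was -0.81 (SE 0.40, adjusted p = 0.0449), and a two-sided exact permutation test gave p = 0.0317. Lck had 2.89, 3.30, 2.69, 5.13 and 3.16 counts per Cd3e count in LDHA-KD tumours, against 9.70, 3.59, 4.16 and 4.47 in control tumours. Its log2 difference of -0.67 (SE 0.39, adjusted p = 0.0911, exact p = 0.103) did not pass. The other 7 lay between -0.22 (Lat) and 0.26 (Sh2d2a), with adjusted p from 0.532 to 0.948. The SE of the 9 differences was 0.39 to 0.43 under IgG and 0.36 to 0.39 under anti-CTLA-4 and was larger than the difference itself for 7 of the 9 genes under IgG and 3 of the 9 under anti-CTLA-4. A gene that did not pass is not shown to keep its proportion to Cd3e. Cd3e rose more than most genes, and 95.6% of all genes were lower on this scale by edgeR and 94% by the exact test. With so many genes called, the adjustment hardly changes p on this scale. For Skap1 the unadjusted edgeR p was 0.0430, so its adjusted p is in effect an unadjusted one.

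Control IgG replicate 1, with 20 Cd3e counts, weighed on these values. Without it the Skap1 difference was -0.40 (adjusted p = 0.291) and that of Lck -0.25 (adjusted p = 0.5). The Skap1 call was lost in 12 of the 19 fits that left out 1 tumour. The other 11, with adjusted p of up to 0.0864, left out 4 LDHA-KD anti-CTLA-4 tumours (replicates 2 to 5), 4 LDHA-KD IgG tumours (replicates 1, 2, 3 and 5) and 3 control anti-CTLA-4 tumours (replicates 1, 2 and 5), 1 in each fit. It was also lost without the 4 libraries apart (-0.81, adjusted p = 0.0544). The Lck difference passed without LDHA-KD IgG replicate 4 (-0.85, adjusted p = 0.0229) and without control IgG replicate 3 (-0.83, adjusted p = 0.0443). Read per summed count of Cd3d, Cd3e and Cd3g, which gives more counts, Lck was lower in LDHA-KD tumours by 0.52 on the log2 scale and Skap1 by 0.65, both with exact p = 0.00794, the smallest this design allows, and Sh2d2a was higher by 0.31 (exact p = 0.0238). Among all genes 95.1% were lower and 0.115% higher on that scale, which was chosen after seeing the data. Control IgG replicate 1 stood high on it too, at 1.48 for Lck (next 0.910) and 0.634 for Skap1 (next 0.379). For Lck the groups were barely apart, at 0.693 in LDHA-KD IgG replicate 4 and 0.695 in control IgG replicate 3. Leaving out single tumours was not tried on that scale.

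Under anti-CTLA-4 no member passed with the edgeR offset, beside 94% of all genes lower, and the smallest adjusted p was 0.0524 (Lck). Its unadjusted edgeR p was 0.0494, so here too the adjustment hardly changed p. Lck passed in 5 of the 19 fits that left out 1 tumour, which were those without LDHA-KD anti-CTLA-4 replicate 1 (adjusted p = 0.0458), LDHA-KD IgG replicate 4 (0.0296), control anti-CTLA-4 replicate 3 (0.0488), control IgG replicate 1 (0.0231) and control IgG replicate 3 (0.0442), and Skap1 passed without control IgG replicate 1 (0.0492). By the exact permutation test, unadjusted over 36 such ratios in 4 comparisons, 6 of the 9 had p under 0.05, all lower in LDHA-KD tumours, beside 93.8% of all genes. Lck had 3.14, 2.28, 2.35, 2.64 and 2.86 counts per Cd3e count in LDHA-KD tumours, against 5.02, 4.30, 3.82, 4.59 and 4.27 in control tumours. Skap1 had 0.981, 1.11, 0.938, 0.903 and 0.949 in LDHA-KD tumours, against 1.55, 1.55, 1.14, 1.59 and 1.78 in control tumours. For Lck, Zap70, Cd2, Cd5 and Skap1 every LDHA-KD tumour lay below every control tumour, with exact p = 0.00794 each, as 80.6% of all genes did, and Lat had exact p = 0.0159. Their ratios were 0.602 (Lck) to 0.751 (Cd5) of those in control tumours. Sh2d2a, Ubash3a and Cd6 had ratios of 1.12, 1.04 and 0.916, with exact p of 0.286, 0.429 and 0.357.

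The other CD3 chains also stood lower against Cd3e under anti-CTLA-4. Cd3d had 1.40, 1.15, 1.07, 1.26 and 1.12 counts per Cd3e count in LDHA-KD tumours, against 2.02, 1.44, 1.56, 1.91 and 1.56 in control tumours, with no overlap (exact p = 0.00794), and Cd3g had exact p = 0.0476. Per summed count of the 3 CD3 chains, Lck was the 1 member still lower, by 0.36 on the log2 scale (exact p = 0.00794). Sh2d2a was higher by 0.54 (exact p = 0.0397) and Ubash3a by 0.43 (exact p = 0.0238), and the other 6 had exact p of 0.0794 to 0.762. Among all genes 88.6% were lower and 0.181% higher on that scale. Without the 4 libraries apart, no member passed with the edgeR offset on Cd3e, and the lowest difference was -0.79 for Lck (adjusted p = 0.122). Only Lck among the 9 was thus lower against both references by the exact test under this antibody. In edgeR with all libraries and no block for the replicate number, Lck passed against neither. With that block it passed against Cd3e (adjusted p = 0.018). Per summed CD3 count its groups were barely apart, at 0.639 in LDHA-KD anti-CTLA-4 replicate 5 and 0.643 in control anti-CTLA-4 replicate 5.

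Ratios to Cd3e were also compared between antibodies. In LDHA-KD tumours no member passed with the edgeR offset, beside 0.0179% of all genes, and the exact p was 0.00794 for Skap1, 0.0159 for Lat and 0.0476 for Cd2, each lower under anti-CTLA-4, beside 50.4% of all genes. Skap1 had 0.981, 1.11, 0.938, 0.903 and 0.949 counts per Cd3e count under anti-CTLA-4, against 1.18, 1.28, 1.20, 1.82 and 1.12 under IgG, with no overlap, which 3.05% of all genes also showed in this direction. Skap1 and Lat were also lower per summed CD3 count, by 0.30 and 0.31 on the log2 scale, with exact p of 0.00794 and 0.0317, beside 64.9% of all genes. In control tumours no member passed either test against Cd3e, beside 82.6% of all genes lower with the edgeR offset, and the smallest exact p was 0.0794 (Skap1). Without the 4 libraries apart, the edgeR differences were -0.40 (Cd5) to -0.16 (Zap70) in LDHA-KD tumours and -0.56 (Skap1) to 0.34 (Zap70) in control tumours, and none passed. Per summed CD3 count, Skap1 was lower under anti-CTLA-4 in control tumours by 0.70 (exact p = 0.00794) and Ubash3a by 0.39 (exact p = 0.0397), beside 83.4% of all genes.

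Around the 9 genes, the rest of the receptor machinery was read from 9 lists of named genes. Their counts stand beside the shares of all genes that edgeR called between the tumour types. With IgG, 16.8% of all genes rose with the knockdown and 17.5% fell. With anti-CTLA-4 these shares were 20.2% and 19.8%. Of the 7 receptor and CD3 chains, 6 rose in LDHA-KD tumours under IgG, among them Cd3d (2.11), Trbc2 (2.12) and Cd247 (1.66), which encodes the zeta chain (log2 fold changes), and Trbc1 had -0.03 with an adjusted p of 0.934. All 7 rose under anti-CTLA-4. All 4 of Cd4, Cd8a, Cd8b1 and Cd28 rose under both antibodies, Cd28 by 2.32 and Cd4 by 1.91 under IgG.

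Of 8 other proximal kinases, 4 rose and 1 fell in LDHA-KD tumours under IgG. Prkcq, the protein kinase C of T cells, rose by 1.78, and Map4k1, a negative regulator, by 1.01 on the log2 scale. Tec fell by 0.33, and Fyn, the other Src family kinase of this step, had 26.8 ± 2.28 CPM in LDHA-KD tumours and 26.8 ± 5.52 CPM in control tumours (SD) with an adjusted p of 0.988, and is named here after its values were seen. Under anti-CTLA-4, 5 rose and none fell. Of 19 other adaptors, 13 rose under each antibody. Under IgG they included Dok2 (1.17), a docking protein, Fyb (1.27), the partner of SKAP1, and Lcp2 (0.82), which encodes SLP-76, the second main substrate of ZAP-70, while none fell. Under anti-CTLA-4, Grap fell by 0.35.

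Of 10 other inhibitors, 5 rose under each antibody and none fell. Under IgG these included the phosphatase gene Ptpn6 (0.51) and the inhibitory receptors Lair1 (1.18) and Btla (1.31), all of which other leukocytes also express. Of 12 downstream enzymes and factors, 7 rose and 2 fell under IgG. Ptprc, which encodes the leukocyte phosphatase CD45 that activates Lck, rose by 0.94 and the exchange factor Arhgef6 by 1.27, whereas Plcg1, the phospholipase that LAT recruits, fell by 0.37 and Malt1 by 0.32. Under anti-CTLA-4, 8 rose and Plcg1 fell by 0.35.

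The ligands of Cd2 and Cd6 moved in opposite directions. Cd48, the ligand of CD2, rose by 0.87 under IgG and by 0.90 under anti-CTLA-4. Alcam, the ligand of CD6, fell by 0.38 under IgG and by 0.31 under anti-CTLA-4, and Cdcp1, known as another CD6 ligand in humans, fell by 0.69 under IgG and by 0.72 under anti-CTLA-4. Of 7 measured SLAM and CD2 family genes, 5 rose under IgG, among them Cd84 (0.78), Slamf6 (1.83) and Ly9 (1.85), and 6 rose under anti-CTLA-4. Of 12 genes that receptor signals induce, 6 rose and 2 fell under IgG. Tnfrsf4 (OX40) rose by 1.58, Cd69 by 1.11 and the nuclear receptor gene Nr4a2 by 0.69, whereas Egr2 fell by 0.66 and Tnfrsf9 by 0.67. Under anti-CTLA-4, 9 rose and none fell. In the comparisons of anti-CTLA-4 with IgG no gene of any list passed in edgeR. The median log2 fold change of LDHA-KD over control tumours under IgG was 1.87 for receptor and CD3 chains and 1.98 for coreceptors and CD28. It was 0.35 for the other kinases, 0.98 for the other adaptors, 0.20 for the other inhibitors and 0.42 for the downstream list. It was 0.87 for the SLAM and CD2 family, -0.38 for the ligands and 0.71 for the induced genes, beside -0.0016 over all genes. For 5 general leukocyte markers, among them Ptprc and Coro1a of the downstream list, it was 0.94, and for 6 macrophage markers 1.08. The part of leukocytes other than T cells in the rises of these lists was not tested.

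**Figure D4:**
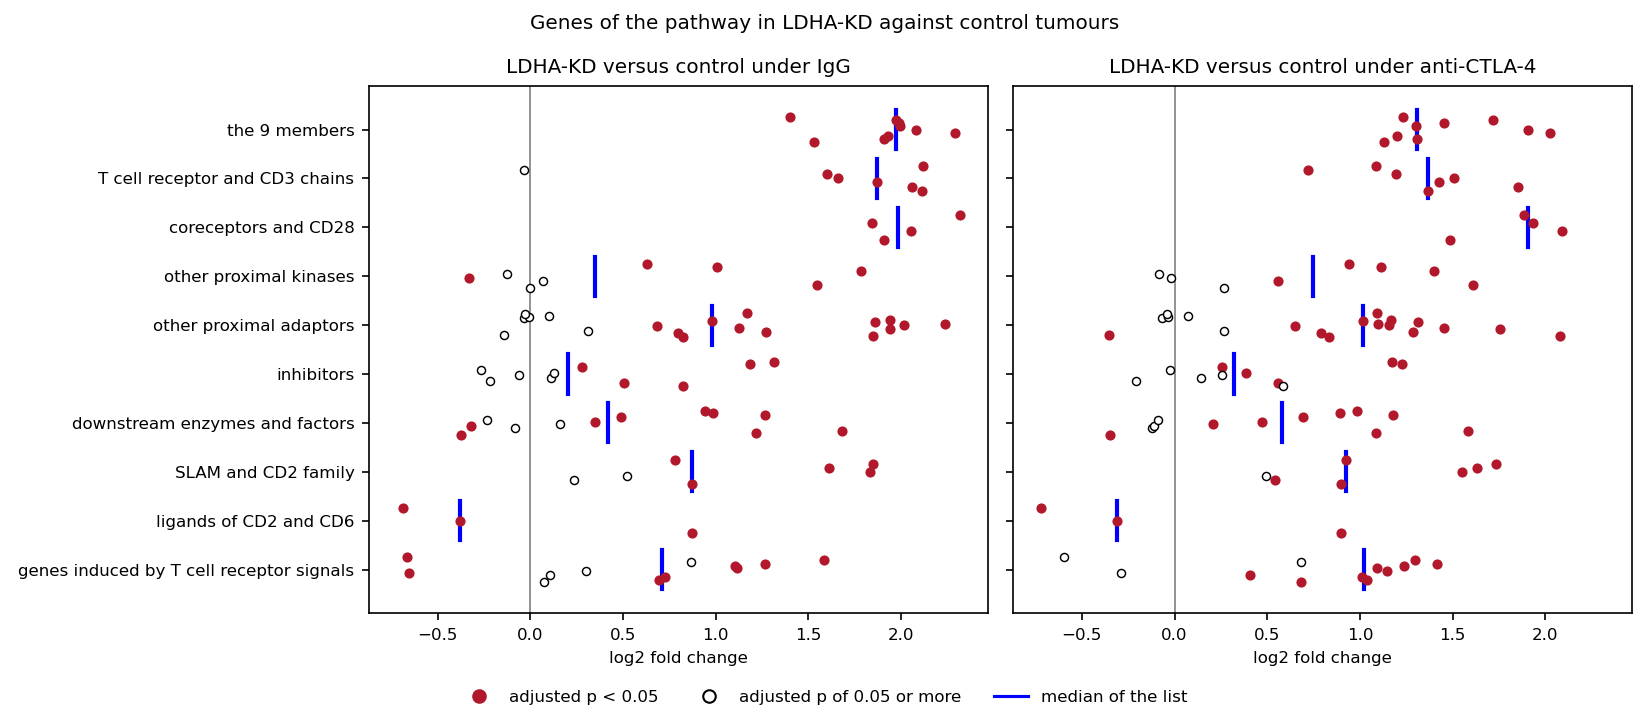
Log2 fold changes of LDHA-KD over control tumours for the 9 genes (top row) and for each list of pathway genes, under IgG (left) and under anti-CTLA-4 (right); filled points passed an adjusted p of 0.05, open points did not, and the blue line is the list's median. The median of the 9 genes is 1.97 under IgG and 1.31 under anti-CTLA-4, that of the CD3 chains 1.87 and 1.37, and that of the other inhibitors 0.20 and 0.32.

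Markers of other cell types moved in the same comparisons, and their part in these results was not tested. The shares of all genes given for the pathway lists stand beside the marker counts too. Natural killer cells also express Lck, Zap70 and Cd2. The summed level of 9 natural killer markers was 12.9 to 31.5 CPM in LDHA-KD tumours under anti-CTLA-4, 19.8 to 30.9 CPM in those under IgG, 9.60 to 15.4 CPM in control tumours under anti-CTLA-4 and 8.12 to 13.7 CPM in those under IgG, and 7 of the 8 tested rose and 1 fell in LDHA-KD tumours under each antibody. The 8 B cell markers summed to 11.6 to 15.6 CPM in LDHA-KD tumours and 4.60 to 8.77 CPM in control tumours under IgG, with 4 of 7 tested higher, and under anti-CTLA-4 to 11.4 to 18.4 CPM in LDHA-KD tumours and 6.33 to 11.3 CPM in control tumours, with 3 higher and 1 lower. The 6 macrophage markers summed to 4178 to 4845 CPM in LDHA-KD tumours and 1531 to 2768 CPM in control tumours under IgG, with 5 of 6 higher, and all 6 were higher under anti-CTLA-4. The 8 mast cell markers, all higher under each antibody, summed to 396 to 782 CPM in LDHA-KD tumours and 96.7 to 142 CPM in control tumours under IgG. The 7 T cell receptor and CD3 genes summed to 40.0 to 62.4 CPM in LDHA-KD tumours and 16.0 to 21.7 CPM in control tumours under IgG. The 6 epithelial markers of the tumour cells summed to 3137 to 3359 CPM in LDHA-KD tumours and 4036 to 5121 CPM in control tumours under IgG, with 3 of 6 lower. Under anti-CTLA-4 they summed to 2069 to 3354 CPM in LDHA-KD tumours and 3907 to 4730 CPM in control tumours, with 5 of 6 lower.

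The 5 platelet and megakaryocyte markers, of which Pf4 made up most, were also read between antibodies. They summed to 70.3 to 140 CPM in control tumours under anti-CTLA-4 and 44.8 to 63.3 CPM in those under IgG, with no overlap, and to 61.0 to 191 CPM in LDHA-KD tumours under anti-CTLA-4 and 54.3 to 102 CPM in those under IgG. The 4 libraries apart had the highest sums of their groups, at 191 and 168 CPM in LDHA-KD and 124 and 140 CPM in control tumours. None of the 4 tested passed between antibodies (Pf4 in control tumours had adjusted p = 0.601), and 2 of 4 were higher in LDHA-KD than in control tumours under each antibody. Their part in the positive differences of the 9 genes under anti-CTLA-4 was not tested.

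Markers of lymph node and thymus were also read. Of 6 lymph node markers found, 2 were tested, and both rose in LDHA-KD tumours under IgG. Ccr7 also rose under anti-CTLA-4. This gene made up nearly all of the sum, at 13.3 ± 1.61 CPM in LDHA-KD tumours and 4.45 ± 2.19 CPM in control tumours under IgG (SD). T cells and dendritic cells also express Ccr7. Glycam1, a mucin gene whose source cell in these tumours was not tested, averaged 0.581 CPM in LDHA-KD tumours and 0.223 CPM in control tumours under IgG (log2 fold change 1.36, adjusted p = 0.0373). The stromal chemokine gene Ccl21a averaged 0.114 CPM in LDHA-KD tumours and 0.0913 CPM in control tumours under IgG, and Ccl19 averaged 0.0161 CPM in LDHA-KD tumours and 0.0288 CPM in control tumours under IgG. Of 5 thymocyte markers, 2 were tested and 1 rose under each antibody. It was Dntt, the terminal transferase gene, with 1.27 CPM in LDHA-KD tumours and 0.491 CPM in control tumours under IgG (log2 fold change 1.37, adjusted p = 0.00563). Rag2 had no counts in either control group, and the sums were 8.60 to 10.2 CPM in LDHA-KD tumours and 7.30 to 9.98 CPM in control tumours under IgG.

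The genes whose pattern was most like that of the 9 were sought among 14317 genes, by Pearson correlation of log2 CPM with the mean of the 9 over all 19 tumours after each group's mean was taken off. Cd4 was first (r = 0.952), and others among the 6 most alike were Cd3e (0.948), Trac, the receptor alpha constant gene (0.935), Icos, a costimulatory receptor gene (0.933), and Prkcq (0.931). Among the 9 themselves the 36 pairwise correlations ran from 0.689 to 0.943 with a median of 0.843, and the tumours share library depth and composition in all of them. Against Cd3e the correlation was highest for Zap70 and Cd2 (0.936 each) and lowest for Lck (0.785) and Skap1 (0.785). The single gene most like each member, among 14325, was Mks1 for Lck (0.915), Satb1 for Zap70 (0.948), Xlr4a for Lat (0.890), Cyfip2 for Sh2d2a (0.962) and for Cd6 (0.949), Cd6 for Ubash3a (0.922) and for Cd5 (0.943), Icos for Cd2 (0.949) and Bcl11b for Skap1 (0.902). Satb1 and Bcl11b are transcription factors of the T cell lineage. These values describe likeness over tumours and carry no test.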

How the data were processed

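RNA from 19 tumours was sequenced as poly(A) libraries (TruSeq Stranded, per the labels' protocols). The deposited values are raw read counts per gene, one column per tumour. HTSeq 0.5.3, Picard 1.124 and build mm10 are named in the submitters' processing notes; the aligner, the annotation and the strand setting are not given in the sources used here. The 5 summary lines that name no gene, 26.2 to 28.7% of the records, stayed out of library sizes. Symbols were matched to GENCODE on GRCm38 for positions and exon lengths (46488 of 46983 identifiers), and promoters came from RefSeq tables of GRCm38.p6.

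Counts were scaled by trimmed mean of M-values factors (0.922 to 1.05), filtered with edgeR's filterByExpr and fitted over all 19 tumours with edgeR 4.0.16 (R 4.3.3) by the quasi-likelihood test, with Benjamini-Hochberg adjustment over all 16763 genes and a threshold of 0.05. Each SE is the size of the log2 fold change divided by the square root of the F value of edgeR's test, so it adds no information to p. Ratios to Cd3e used the log Cd3e count as an offset in the same fit, over all genes. A two-sided exact permutation test of the log2 ratio stands beside it, unadjusted, and its smallest possible p is 0.00794. Alternatives were DESeq2 1.42.0, limma 3.58.1 (voom and trend), relative log expression factors, no filter, fits of the compared groups alone, other references for the ratio, the replicate number as a block and leaving out each tumour. Leaving out 4 libraries together and the exact test against the summed CD3 count were added after seeing the data. The scripts were tested on simulated data with changes planted in LDHA-KD against control tumours under IgG. The fit with library sizes called 81% of 2-fold and 100% of 4-fold changes. The fit with the Cd3e offset called 4% of 2-fold and 100% of 4-fold changes, so it could miss differences of 2-fold or less. In that simulation 16388 genes were unchanged on the Cd3e scale, whereas most genes were lower on it in the LDHA-KD tumours themselves. The 2 most alike libraries still differed beyond sampling noise (chi-square per gene 5.01), so all were counted as separate.

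The 9 genes, the pathway lists and the marker lists were chosen with earlier results of these data known. Named from each list were up to 3 genes per direction with the smallest p among those past the threshold, and as alike genes the 6 with the highest correlation with the mean of the 9; some genes that this rule names are not reported here.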

Additional observations from a re-analysis of the deposited data

Results flagged for a closer look

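Within groups of 4 or 5 tumours, 76 sets of values were examined for a tumour that stood far from the rest, and chance alone marks about 1 set in 20. Of the 8 marked, all were counts per Cd3e count. LDHA-KD IgG replicate 4, with 84 Cd3e counts, was high for Lck (5.13, next 3.30), Zap70 (0.940, next 0.718), Cd2 (2.82, next 2.08) and Skap1 (1.82, next 1.28). Control IgG replicate 1, with 20 Cd3e counts, was high for Lck (9.70, next 4.47), Cd2 (3.10, next 2.11) and Skap1 (4.15, next 1.86). LDHA-KD anti-CTLA-4 replicate 5 was high for Cd5 (1.10, next 0.856). These ratios share their denominator within a tumour, so they are not separate events.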

How the results depend on the processing

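All 9 genes remained higher in LDHA-KD tumours under each antibody in every alternative run, and in every fit that left out 1 tumour (9 to 9 called); the genes called in all were 4710 to 6023 of 16763 under IgG and 5813 to 7182 under anti-CTLA-4 in those fits, and 4308, against 6711, without the 4 libraries apart. For anti-CTLA-4 against IgG, DESeq2 called 50 genes in LDHA-KD tumours and 11 in control tumours, 3 of the 9 among them, against 0 by edgeR, which called 0 to 1 in LDHA-KD tumours with 1 tumour left out. Results per Cd3e count depended most on the settings. In LDHA-KD over control tumours Cd3e rose by 2.06 and Ptprc by 0.94 on the log2 scale under IgG. Under anti-CTLA-4 they rose by 1.85 and 0.98, so LDHA-KD over control ratios lie higher with Ptprc as reference. The cause of the other differences between settings was not tested. Under IgG, 1 gene passed and was lower, against 8 with Ptprc as reference, all of them higher. The number was 0 with limma trend, 0 with no filter, 0 without the 4 libraries and 0 to 2 with 1 tumour left out. By the exact test on the summed CD3 count it was 3, of which 2 were lower and 1 higher. Under anti-CTLA-4, 0 passed, and none did with the summed CD3 count in edgeR. With Ptprc 3 passed, all higher, and with limma trend 1 passed, lower. The exact test gave 6, all lower, and on the summed CD3 count 3, of which 1 was lower and 2 higher. With 1 tumour left out, 0 to 2 passed. The share of all genes called was not worked out for Ptprc, limma trend or the replicate block, so their counts have no such value beside them. Between antibodies 0 passed, against 3 by the exact test and 2 by that on the summed CD3 count in LDHA-KD tumours, and in control tumours 1 with the summed CD3 count in edgeR and 2 by its exact test.

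Of 18 same-numbered pairs of tumours, 9 correlated over 0.1 (-0.212 to 0.392) and 5 correlated best with their own number, so the replicate numbers were not taken as a pairing. With the block, 5941 genes under IgG and 7144 under anti-CTLA-4 were called, with 9 of the 9 in each and 0 genes between antibodies, and per Cd3e count 1 gene passed under IgG and 1 under anti-CTLA-4 (Lck, adjusted p = 0.018).

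Signs turned in fits that left out 1 tumour and in other runs given below, and also with Ptprc as reference. LDHA-KD over control log2 ratios were then 0.55 (Lck), 0.98 (Zap70), 0.99 (Lat), 1.06 (Cd2) and 0.43 (Skap1) under IgG, and 0.14 (Lck), 0.33 (Zap70), 0.22 (Lat), 0.32 (Cd2), 0.47 (Cd5), 0.74 (Cd6) and 0.27 (Skap1) under anti-CTLA-4. Anti-CTLA-4 over IgG ratios were 0.32 (Lck), 0.51 (Zap70), 0.20 (Lat), 0.44 (Sh2d2a), 0.46 (Ubash3a), 0.35 (Cd2), 0.35 (Cd5), 0.46 (Cd6) and 0.25 (Skap1) in LDHA-KD tumours, and 0.73 (Lck), 0.97 (Lat), 0.76 (Sh2d2a), 0.66 (Ubash3a), 0.77 (Cd6) and 0.42 (Skap1) in control tumours. With the block, Cd6 per Cd3e count was -0.0072 under IgG. With the summed CD3 count, Cd6 was 0.24 under anti-CTLA-4, and Cd2 and Cd5 were -0.013 and -0.051 between antibodies in control tumours. Without the 4 libraries Sh2d2a per Cd3e count was -0.033 under anti-CTLA-4, and the interaction was 0.036 for Ubash3a and 0.028 for Skap1. With 1 tumour left out, ratios to Cd3e under IgG ran from -0.20 to 0.067 (Cd2), -0.10 to 0.14 (Cd5), -0.096 to 0.20 (Cd6) and -0.073 to 0.24 (Ubash3a), those between antibodies in control tumours from -0.47 to 0.11 (Lck), -0.15 to 0.15 (Lat), -0.0027 to 0.24 (Cd5) and -0.16 to 0.11 (Cd6), and the interaction of Ubash3a from -0.44 to 0.041. The 20 Cd3e counts of 1 control tumour limit all ratios in the control IgG group.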
